A study of Homo sapiens with 6 samples.

Results

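Cytochrome P450 genes were followed in colorectal cancer cells in which CNOT7, a deadenylase subunit of the CCR4-NOT complex that shortens the poly(A) tails of mRNAs, had been knocked down with shRNA. The genes were taken by name: every protein-coding gene of the count table whose symbol is CYP followed by a family number, a subfamily letter and a member number, other than CYP51A1, the sterol demethylase of cholesterol synthesis. This gave 54 of the 58735 genes in the table. The name rule used no measured value, but the family and the gene lists below were chosen with earlier results of these data known. RNA was sequenced from 6 libraries without treatment, 3 of control cells (shNc) and 3 of cells with stable CNOT7 knockdown. The labels name the line SW480, and the paper names HCT116 for this experiment. Both are established colorectal cancer lines. The paper describes a lentiviral U6 vector that also carries copGFP and a puromycin resistance gene, and a pair of shRNAs against CNOT7. Which shRNA the knockdown libraries carry, whether the line is a single clone, and whether the 3 libraries of a group are separate cultures is not stated, so p-values measure the spread between these libraries, which may be technical.

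Cytochrome P450 enzymes hold a heme iron and insert an oxygen atom into their substrates, with electrons delivered by POR in the endoplasmic reticulum or by FDXR and FDX1 in mitochondria. Members of families 1 to 3 mostly oxidize drugs and other foreign compounds, family 4 mostly fatty acids, and the other families mostly steroids, bile acids, retinoids and vitamin D. In the gut epithelium CYP3A enzymes take part in the first-pass clearance of oral drugs, and many P450 genes are switched on by ligand-activated receptors such as AHR, the pregnane X receptor (NR1I2) and the vitamin D receptor (VDR).

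CNOT7 itself was measured at 169, 191 and 176 CPM (counts scaled to library size with TMM factors) in control libraries 1 to 3 and at 43.4, 47.2 and 38.6 CPM in knockdown libraries 1 to 3. Its level left after knockdown was 24.1% (log2 fold change -2.05, SE 0.0734, adjusted p = 2.64e-12). All log2 fold changes are knockdown minus control from edgeR's quasi-likelihood test, with p adjusted by the Benjamini-Hochberg method over all 17574 tested genes, and a gene is called where the adjusted p is under 0.05. Libraries held 23788451 to 25982493 counts in the control group and 27523812 to 29104872 in the knockdown group. Mitochondrial ribosomal RNA took 0.990 to 1.05% of control counts and 1.44 to 1.58% of knockdown counts, and its part in the results was not tested. The epithelial marker EPCAM was at 208 to 218 CPM in control and 215 to 230 CPM in knockdown libraries, and KRT18 and CDX2 were not called (adjusted p = 0.672 and 0.745). Of the 10 tested genes among 14 colon epithelium markers, 4 were higher with knockdown (ASCL2, CDH1, GPA33, VIL1) and 2 lower (KRT8, KRT19). These were 60% of the tested markers, against 25.2% of all tested genes. GPA33 passed the filter only through the knockdown libraries, and ASCL2, KRT8 and KRT19 lost the call in at least 1 alternative fit. The differentiation markers CEACAM5, KRT20 and CDX1 were at or near 0 in the 6 libraries.

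Most of the family had few counts or none. Of the 54 P450 genes, 11 had no count in any library, 20 had counts but stayed below the filter for testing (about 0.374 CPM in at least 3 libraries), and 23 passed it. A mean of at least 1 CPM in either group was reached by 18 genes, and at least 10 CPM by 9. The genes without a count include classic liver enzymes, such as CYP2B6 of drug clearance, CYP7A1 and CYP8B1 of bile acid synthesis, and CYP4A11 of fatty acid omega-hydroxylation. They also include CYP11B1 and CYP11B2 of the adrenal cortex. A total of 0 in a group still allows up to 3 counts over that group, counting error only.

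**Figure D1:**
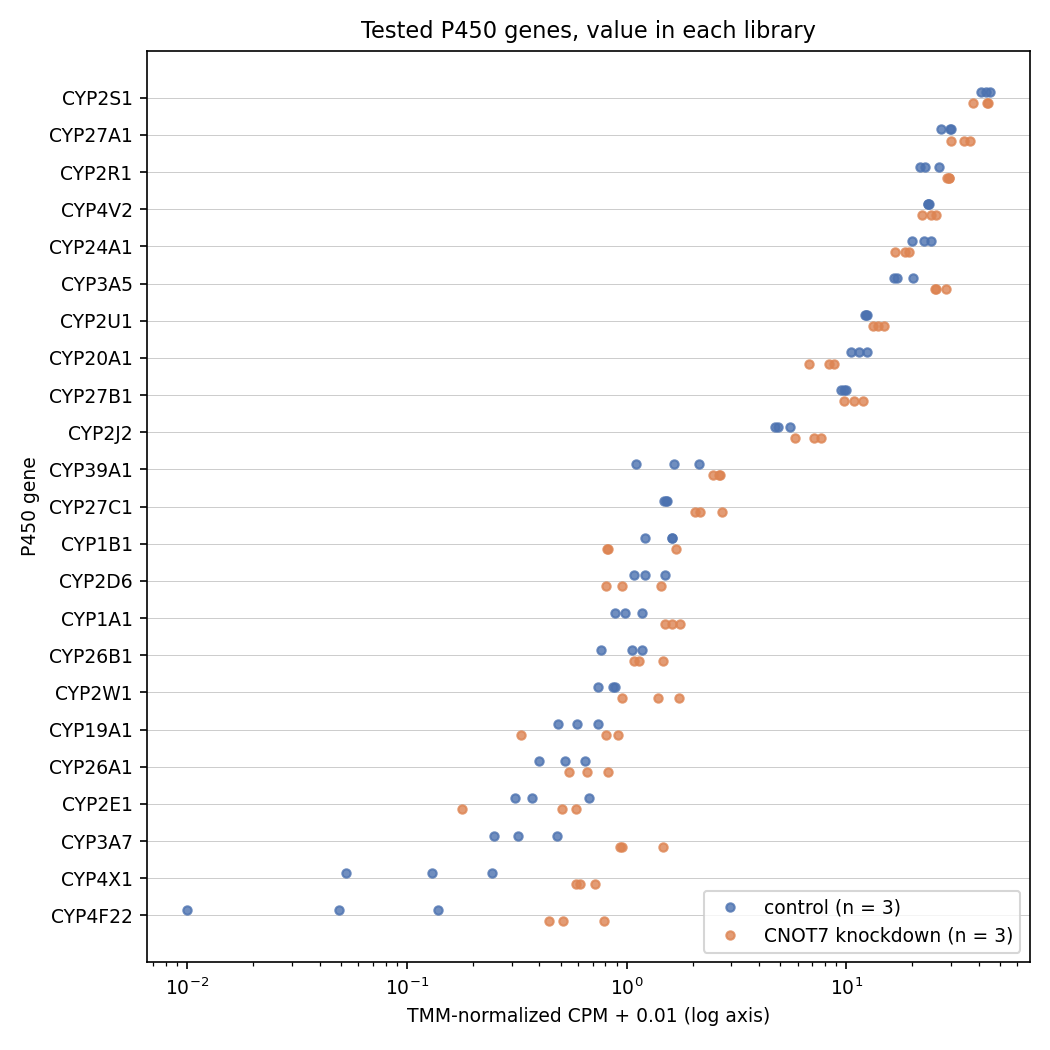
TMM-normalized CPM of the 23 tested P450 genes in each library, with 0.01 added and a log axis. Blue points are the 3 control libraries and orange points the 3 CNOT7 knockdown libraries, and genes are ordered by their control mean. Most genes keep their place between groups, while the 3 lowest genes in control, CYP3A7, CYP4X1 and CYP4F22, stand well to the right with knockdown.

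Expression was concentrated in a few genes with largely endogenous or little-known substrates. Per kilobase of the gene length given in the table, CYP2S1, an epithelial P450, was highest in control cells at 15.0 ± 0.713 CPM per kb (SD, n = 3), followed by CYP27A1, the mitochondrial sterol 27-hydroxylase, at 9.70 ± 0.572. CYP24A1 (5.59 ± 0.566) and CYP2R1 (5.23 ± 0.565) came next and lay within their SDs of each other. CYP20A1 (3.72 ± 0.307), CYP27B1 (2.83 ± 0.0755), CYP3A5 (2.65 ± 0.295), CYP4V2 (2.41 ± 0.0215), CYP2U1 (2.01 ± 0.0191) and CYP2J2 (1.68 ± 0.141) made up the rest of the 10 genes with at least 1 CPM per kb. CYP3A5 could not be placed against CYP27B1 and CYP4V2, since its SD reaches both, while CYP27B1 lay above CYP4V2 beyond their SDs. With knockdown CYP3A5 stood at 3.91 ± 0.243 and CYP20A1 at 2.58 ± 0.347 CPM per kb, so their order was the reverse of that in control cells. The summed level of the family was 209.3 ± 4.87 CPM in control and 230.4 ± 4.14 CPM in knockdown libraries (SD, n = 3 each), without overlap.

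With knockdown 8 P450 genes were higher and 2 lower, so that 10 of the 23 tested were called, against 25.2% of all tested genes. The higher genes were CYP3A5, CYP3A7, CYP4F22, CYP2J2, CYP2R1, CYP27C1, CYP39A1 and CYP4X1, or 34.8% of the tested members against a background of 13.3%. The lower genes were CYP24A1 and CYP20A1, or 8.70% against 11.9%. No test of the family as a list was made, and the family was chosen with earlier results of these data known. Between groups the libraries of 13 members did not overlap (56.5%), as for 38.8% of all tested genes, and the median log2 fold change was 0.30 in the family and 0.0039 over all tested genes. Only 3 members were called higher with a log2 fold change of at least 1, as were 2.8% of all tested genes: CYP3A7, CYP4X1 and CYP4F22. These 3 passed the filter only through the knockdown libraries, so they had to differ, and the counts above hold them. Of the 18 members over the filter in all 6 libraries, 5 were higher and 2 lower. In RNA from whole cultures, a change in the share of cells that express a gene and a change of its level in each cell cannot be told apart.

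The number called depended on the libraries and the tool, in the family as over all genes. It was 6 without control replicate 1 and 5 without knockdown replicate 1, and it was 8 to 11 with each of the other libraries left out. Over all genes 4424 were called with all libraries, 3490 without control replicate 1, 3106 without knockdown replicate 1 and 3857 with DESeq2. DESeq2 called 5 P450 genes (CYP2R1, CYP3A5, CYP3A7, CYP20A1 and CYP24A1) and gave no adjusted p for CYP4X1 and CYP4F22. Whichever library was left out, CYP3A5 and CYP20A1 were called. So were CYP3A7, CYP4F22 and CYP4X1, which is no support, since their passing the filter fixed a difference.

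**Figure D2:**
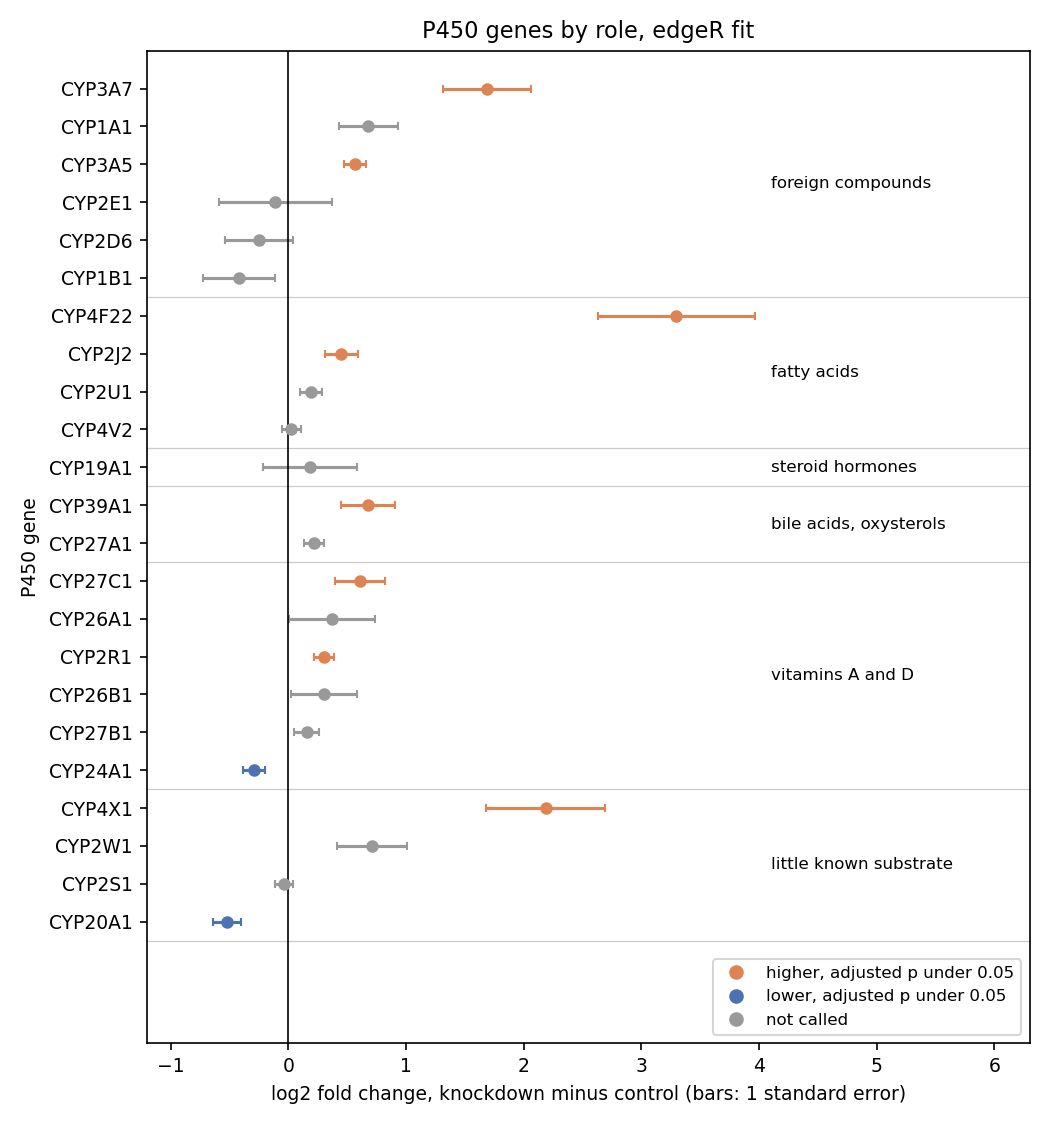
Log2 fold change (knockdown minus control) of the 23 tested P450 genes with 1 standard error, grouped by what the enzymes act on. Orange marks genes called higher, blue genes called lower and grey genes not called at an adjusted p of 0.05. The 8 called higher are spread over 5 of the 6 role groups, and the 2 called lower are CYP24A1 and CYP20A1.

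Among the 16 P450 genes that act on foreign compounds, 6 were tested and 2 were higher, both from the CYP3A cluster on chromosome 7. Of these 6, 33.3% were called, against 25.2% of all tested genes, and CYP3A7 passed the filter only through the knockdown libraries. CYP3A5 (ENSG00000106258, GRCh38 chr7:99648194-99680026, minus strand) is the CYP3A enzyme often found outside the liver. It was measured at 17.0, 20.2 and 16.5 CPM in control libraries 1 to 3 and at 25.5, 28.3 and 25.5 CPM in knockdown libraries 1 to 3. Every knockdown library was above every control library, and the rise was 1.48-fold (log2 fold change 0.57, SE 0.0913, adjusted p = 0.000201). CYP3A7 (ENSG00000160870, chr7:99684957-99735196), the main CYP3A enzyme of fetal liver, had 8, 11 and 6 counts in control and 26, 40 and 28 counts in knockdown libraries. This was 0.311, 0.473 and 0.239 CPM against 0.923, 1.45 and 0.940 CPM, a 3.22-fold rise (log2 fold change 1.69, SE 0.374, adjusted p = 0.00298). Its counts carry a limit, since 41.7% of its exonic bases are also annotated on the same strand as the readthrough gene CYP3A7-CYP3A51P or the pseudogene CYP3A51P. The other genes of the cluster stayed near 0: CYP3A4, the chief drug-metabolizing P450 of adult liver and gut, had 3, 1 and 1 counts in control and 1, 1 and 2 in knockdown libraries. CYP3A43 had 2, 0 and 0 counts against 1, 0 and 1. The rise was thus measured for 2 of 4 neighbouring genes. Of 40 other tested genes within 500 kb of the cluster, 3 were higher and 4 lower, against 13.3% and 11.9% of all tested genes.

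The promoters of these 3 genes are shown because CYP3A4 and CYP3A5 share both repeat units of a receptor element. CYP3A7 holds the element with a changed base in 1 unit, and the genes differ in level in these cells. Each line is the 250 bases before the RefSeq start on the minus strand of chromosome 7, read 5′ to 3′ (GRCh38.p14: CYP3A5 chr7:99679997-99680246, CYP3A7 chr7:99735197-99735446, CYP3A4 chr7:99784185-99784434). Capitals mark an everted repeat, TGAACT and AGGTCA separated by 6 bases, which is the kind of element bound by the pregnane X receptor. The element was searched for after the data had been seen.
CYP3A5: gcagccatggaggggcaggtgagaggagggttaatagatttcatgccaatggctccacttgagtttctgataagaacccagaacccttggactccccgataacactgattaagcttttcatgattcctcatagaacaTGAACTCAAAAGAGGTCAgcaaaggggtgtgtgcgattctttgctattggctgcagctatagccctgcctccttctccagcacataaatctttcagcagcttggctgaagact
CYP3A7: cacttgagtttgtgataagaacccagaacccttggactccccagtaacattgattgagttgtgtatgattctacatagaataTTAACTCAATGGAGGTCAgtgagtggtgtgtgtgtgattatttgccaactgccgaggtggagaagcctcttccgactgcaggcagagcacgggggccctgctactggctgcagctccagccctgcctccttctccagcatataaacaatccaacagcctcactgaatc
CYP3A4: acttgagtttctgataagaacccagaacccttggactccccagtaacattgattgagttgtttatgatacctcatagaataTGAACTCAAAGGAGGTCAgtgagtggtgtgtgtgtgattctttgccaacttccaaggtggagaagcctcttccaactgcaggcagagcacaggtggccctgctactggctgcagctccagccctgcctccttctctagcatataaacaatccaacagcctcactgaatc
The element lies 113 to 96 bases before the start of CYP3A5, 168 to 151 before CYP3A7 and 169 to 152 before CYP3A4. In CYP3A7 the searched repeat is changed by G2T, counted from 1 at the 5′ end of the element. The separating bases differ as well. Over all 18 marked bases CYP3A5 and CYP3A4 were equal at 17, CYP3A7 and CYP3A4 at 16, and CYP3A5 and CYP3A7 at 15. Searched on both strands, the exact repeat was in 3 of 35116 RefSeq promoter windows (0.00854%), those of CYP3A4, CYP3A5 and ITGB1BP2. NR1I2, the receptor's gene, had no count in control libraries and 4, 1 and 0 counts in knockdown libraries, and was not tested.

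CYP1A1, the AHR-induced enzyme that oxidizes polycyclic aromatic hydrocarbons, was at 0.973, 1.16 and 0.878 CPM in control and 1.6, 1.74 and 1.48 CPM in knockdown libraries. The groups did not overlap, but the test missed the threshold (log2 fold change 0.68, SE 0.25, adjusted p = 0.0576), and it passed only where at least 10 counts were required in every library (adjusted p = 0.04). AHR was at 31.0 to 33.8 CPM in control and 25.4 to 30.3 CPM in knockdown libraries (log2 fold change -0.21, adjusted p = 0.0623), and its partner ARNT had a log2 fold change of 0.14 (adjusted p = 0.136). CYP1B1, also an AHR target, had log2 fold change -0.42 (adjusted p = 0.347). Of the other AHR targets listed, AHRR (0.25, adjusted p = 0.105) and TIPARP (-0.08, adjusted p = 0.455) were not called. NQO1, a quinone reductase, rose by 0.18 (adjusted p = 0.0228, highest in an alternative fit 0.111), and ALDH3A1, an aldehyde dehydrogenase, rose from 4.40, 4.69 and 4.63 to 8.48, 9.17 and 8.39 CPM (log2 fold change 0.93, SE 0.12, adjusted p = 2.22e-05). Of the AHR targets outside the family, 4 were tested and these 2 were called, both higher (50%, against 25.2% of all tested genes). CYP2D6, which clears many drugs, and CYP2E1, which oxidizes ethanol, were not called (adjusted p = 0.576 and 0.897). For CYP2D6, 34.4% of its 50-base words also occur in other genes, chiefly its neighbour CYP2D7, which is not annotated as protein-coding and was lower with knockdown (log2 fold change -0.87, adjusted p = 0.0369, highest in an alternative fit 0.142).

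Of the 12 fatty acid P450 genes, 4 were tested and 2 were higher (50% called, against 25.2% of all tested genes). CYP4F22 (ENSG00000171954, chr19:15508493-15552317, plus strand), the fatty acid omega-hydroxylase of the epidermal barrier, had 1, 3 and 0 counts in control libraries and 22, 12 and 15 in knockdown libraries. Its 49 knockdown counts against 4 control counts gave a ratio, corrected for library size, of 10.6 with a 95% counting interval of 3.88 to 40.4 (adjusted p in the edgeR fit = 0.0015). Its fitted log2 fold change of 3.29 became 4.57 without control replicate 2 and 2.74 without control replicate 3. Other members of the CYP4F cluster on chromosome 19 stayed below the filter. CYP4F3, the leukotriene B4 omega-hydroxylase, had 0, 2 and 1 counts in control and 18, 14 and 7 in knockdown libraries, a ratio of 11.2 (3.57 to 56.9). With no filter on low counts its adjusted p was 0.00044. CYP4F2, which hydroxylates vitamin K and arachidonic acid, had 0, 0 and 1 counts against 5, 4 and 1 (ratio 8.65, 1.23 to 375, adjusted p = 0.29 with no filter). CYP4F12 had none in control and 6, 4 and 0 in knockdown libraries. Against a floor of 3 counts over the control group its ratio was 2.88, which allows no counting error in the knockdown counts. CYP4F12 was not called with no filter (adjusted p = 0.0854). CYP4F11 had 2, 0 and 0 counts against 2, 3 and 0, and CYP4F8 a single count in all. Within the cluster the difference thus passed a test in CYP4F22, which met the filter only through knockdown, and, without a filter, in CYP4F3. Reads of CYP4F2 and CYP4F3 may be split between them, since 12.1% and 8.64% of their 50-base words occur in other genes. Among 19 other tested genes within 500 kb, 1 was higher and 4 lower, against 13.3% and 11.9% of all tested genes.

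**Figure D3:**
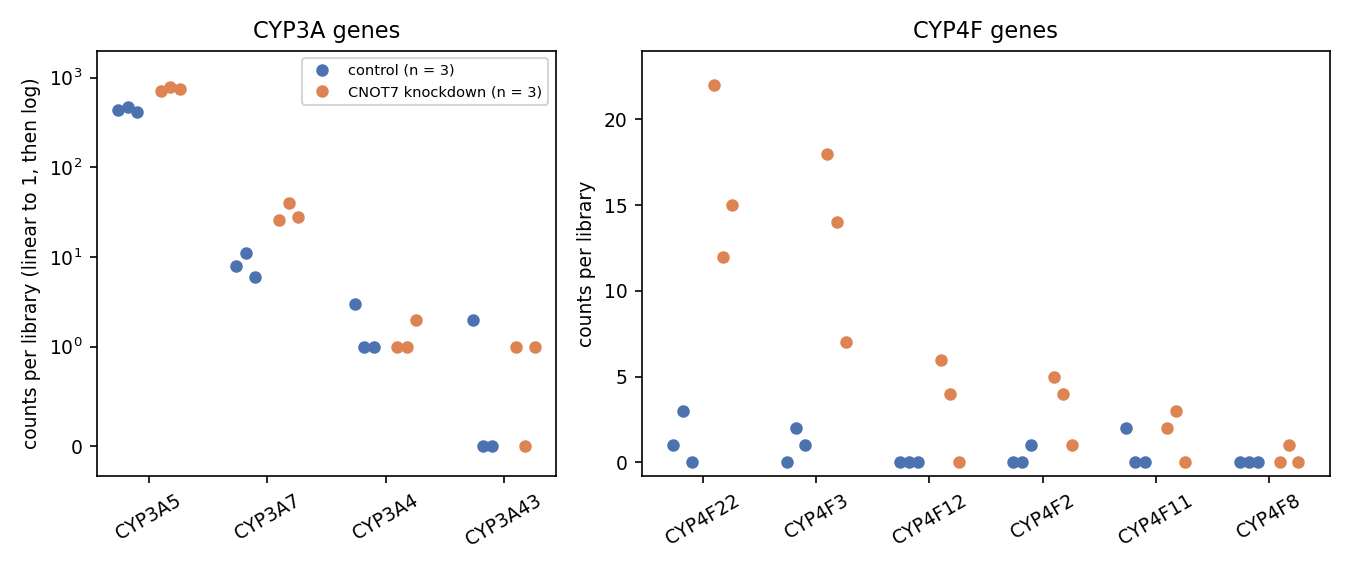
Raw counts per library of the CYP3A genes (left, axis linear to 1 and logarithmic above) and the CYP4F genes (right, linear axis). Blue points are the 3 control libraries and orange points the 3 knockdown libraries, which held more counts in total. CYP3A5 and CYP3A7 are higher with knockdown beside a near-silent CYP3A4, and CYP4F22 and CYP4F3 reach 7 to 22 counts with knockdown against 0 to 3 in control.

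CYP2J2, the arachidonic acid epoxygenase, was at 4.86, 5.50 and 4.71 CPM in control and 7.66, 7.10 and 5.84 CPM in knockdown libraries. Its libraries did not overlap and it rose 1.37-fold (log2 fold change 0.45, SE 0.138, adjusted p = 0.0236). The call was lost with DESeq2 (adjusted p = 0.0634), without control replicate 1 or 3 (0.0647 and 0.0941), without knockdown replicate 1 (0.132) and under cyclic loess normalization (0.0816). EPHX2, the soluble epoxide hydrolase that hydrolyses the epoxides CYP2J2 makes, rose by a log2 fold change of 0.30 (adjusted p = 0.0208, highest in an alternative fit 0.0787). CYP2U1, also a fatty acid hydroxylase, was at 12.1 to 12.4 CPM in control and 13.2 to 14.9 CPM in knockdown libraries, without overlap and not called (log2 fold change 0.19, adjusted p = 0.151). CYP4V2, mutated in Bietti crystalline dystrophy, was at 23.5 to 23.9 CPM against 22.1 to 25.7 CPM (log2 fold change 0.02, adjusted p = 0.86).

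The P450 genes of vitamin D are among the most expressed of the family here, and they moved in different directions. CYP2R1 (ENSG00000186104, chr11:14877440-14892252), the main vitamin D 25-hydroxylase, rose from 21.6, 26.5 and 22.9 CPM to 28.8, 29.2 and 29.3 CPM, 1.23-fold (log2 fold change 0.30, SE 0.0837, adjusted p = 0.0134). The knockdown libraries lay close together and above all controls, but the call was lost without control replicate 1 or 3 (adjusted p = 0.0811 and 0.0713) or knockdown replicate 1 (0.0528). CYP27B1, which makes the active hormone calcitriol, was at 9.46, 9.97 and 9.74 CPM against 10.8, 9.75 and 11.9 CPM, and its libraries overlapped (log2 fold change 0.15, adjusted p = 0.322). CYP24A1 (ENSG00000019186, chr20:54153449-54173973), which inactivates calcitriol and is a classic VDR target, had 22.5, 24.3 and 19.8 CPM in control and 18.5, 19.3 and 16.7 CPM in knockdown libraries. It fell by 18.3% (log2 fold change -0.29, SE 0.0935, adjusted p = 0.0293). The highest knockdown library was just under the lowest control, and the call was lost without control replicate 1 (adjusted p = 0.0681) or 2 (0.109) and without knockdown replicate 1 (0.0666) or 3 (0.0981). VDR itself was at 164, 157 and 166 CPM in control and 224, 213 and 221 CPM in knockdown libraries (log2 fold change 0.43, SE 0.0525, adjusted p = 1.08e-05). The receptor thus rose while its target CYP24A1 fell. LRP2, the megalin receptor that takes up vitamin D bound to its carrier protein, rose from 2.65, 2.97 and 2.07 to 5.75, 7.61 and 6.35 CPM (log2 fold change 1.36, SE 0.167, adjusted p = 1.28e-05). DHCR7, which turns the vitamin D precursor into cholesterol, fell by 0.43 on the log2 scale (adjusted p = 0.000105).

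**Figure D4:**
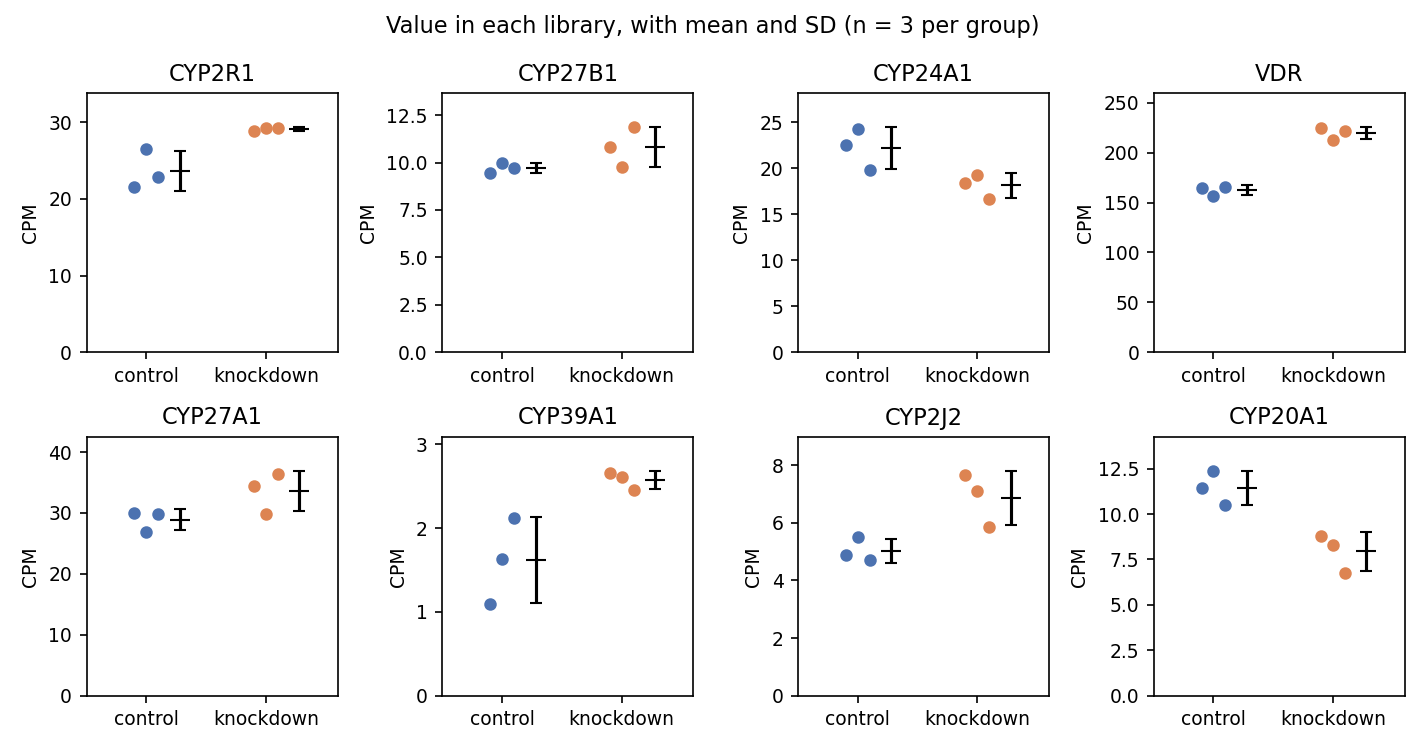
CPM in each library (points) with the mean and SD (bars, n = 3 per group) for CYP2R1, CYP27B1, CYP24A1, VDR, CYP27A1, CYP39A1, CYP2J2 and CYP20A1, each on its own axis from 0. CYP24A1 and CYP20A1 are lower in all knockdown libraries and VDR is higher, while the groups overlap for CYP27B1 and CYP27A1.

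For vitamin A, the retinoic acid hydroxylases CYP26A1 and CYP26B1, which clear the hormone, were low and not called (log2 fold changes 0.37 and 0.30, adjusted p = 0.503 and 0.484). CYP26B1 was at 1.05, 1.16 and 0.758 CPM in control and 1.46, 1.12 and 1.07 CPM in knockdown libraries. For CYP26A1, 25.2% of the exonic bases are shared with another gene on the same strand. CYP27C1, the retinol 3,4-desaturase, rose from 1.52, 1.5 and 1.48 CPM to 2.70, 2.03 and 2.15 CPM (log2 fold change 0.61, SE 0.211, adjusted p = 0.0423). That call was lost with DESeq2 (0.145), with no filter (0.0741), under cyclic loess (0.127) and without each library in turn other than knockdown replicate 2, with adjusted p from 0.0556 (without knockdown replicate 3) to 0.192 (without knockdown replicate 1) and 0.0965, 0.0805 and 0.116 without control replicates 1, 2 and 3. Among other genes of retinoid handling, DHRS3, which reduces retinal, rose by a log2 fold change of 0.42 (adjusted p = 0.000382), STRA6, the retinol importer, by 0.25 (0.00684), and the retinoic acid receptor RARA by 0.36 (0.00576). The retinoic acid binding proteins CRABP2 and CRABP1 rose by 0.20 and 1.23 (0.0169 and 0.0323), and CRABP1 was under 1 CPM in every library. CRABP1 passed the filter only through the knockdown libraries (0.195, 0.602 and 0.319 CPM in control), so its call is no support. STRA6 and CRABP2 lost the call in at least 1 alternative fit (highest adjusted p = 0.0548 and 0.135). CRABP1 lost it with DESeq2 (0.102), under cyclic loess (0.078), without control replicate 1 or 3 (0.152 and 0.11) and without knockdown replicate 1 or 3 (0.124 and 0.0547). RDH11, a retinal reductase, fell by 0.25 on the log2 scale (0.00417). Of the 17 genes listed for retinoid and vitamin D handling, 10 were tested, 5 of them higher and 2 lower. In this list 70% of the tested genes were called, against 25.2% of all tested genes, and the list was not tested against them. The 5 higher include CRABP1.

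CYP27A1 and CYP39A1 were the tested genes of the 6 that make bile acids and oxysterols. CYP27A1 had 30.04, 27.0 and 29.8 CPM in control and 34.5, 29.9 and 36.4 CPM in knockdown libraries, which overlapped (log2 fold change 0.22, SE 0.0837, adjusted p = 0.0687). It was called without knockdown replicate 2 (adjusted p = 0.00858). CYP39A1, the 24-hydroxycholesterol 7-alpha-hydroxylase, rose from 1.09, 1.63 and 2.11 CPM to 2.66, 2.61 and 2.45 CPM (log2 fold change 0.67, SE 0.228, adjusted p = 0.0379). The control libraries spread far more than the knockdown libraries, and the call was lost with DESeq2 (0.102), under cyclic loess (0.115), without control replicate 1 or 2 (0.191 and 0.0606) and without knockdown replicate 1, 2 or 3 (0.113, 0.0626 and 0.0516). CYP46A1, the brain cholesterol 24-hydroxylase, had 7, 5 and 5 counts in control and 15, 8 and 14 in knockdown libraries (ratio 1.88, 95% counting interval 1.03 to 3.57) and was not called with no filter (adjusted p = 0.383).

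Steroid hormone synthesis was barely represented, with 1 of 6 genes tested. That gene, CYP19A1 (aromatase), was at 0.584, 0.731 and 0.479 CPM in control and 0.319, 0.797 and 0.907 CPM in knockdown libraries (adjusted p = 0.789). CYP11A1, which cuts the cholesterol side chain in the first step, had 3, 1 and 1 counts against 4, 9 and 16 (ratio 5.02, 1.92 to 16.6) and an adjusted p of 0.0377 with no filter. In the annotation 28.96% of its exonic bases overlap genes on the other strand, and the library kit does not mark strand. HSD3B1, which converts its product and was listed as a steroidogenic marker, rose from 0.311, 0.172 and 0.160 to 0.993, 1.23 and 0.839 CPM (log2 fold change 2.22, SE 0.404, adjusted p = 0.000605). It passed the filter only through the knockdown libraries, so it had to differ. The other defining markers of steroid-making cells, STAR and NR5A1, had 0 to 4 counts in any library, and HSD17B3, HSD3B2 and MC2R had none.

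Of the 7 P450 genes of little-known substrate, 4 were tested, 1 was lower (CYP20A1) and 1 higher (CYP4X1). These were 50% of the tested genes of this group, against 25.2% of all tested genes. CYP4X1 passed the filter only through the knockdown libraries, so it had to differ. CYP20A1 (ENSG00000119004, chr2:203238940-203305611, plus strand) had 11.4, 12.4 and 10.5 CPM in control and 8.80, 8.30 and 6.75 CPM in knockdown libraries, without overlap. It fell by 30.5% (log2 fold change -0.53, SE 0.119, adjusted p = 0.0036) and was called in each of the 12 alternative fits. CYP4X1 (ENSG00000186377, chr1:47023568-47050751) had 6, 1 and 3 counts against 17, 16 and 21 (log2 fold change 2.19, SE 0.505, adjusted p = 0.00402). Without control replicate 1 its log2 fold change was 2.86, and it ranged from 1.8 to 2.24 without each of the others. It lies in the CYP4 cluster of chromosome 1, whose other 4 genes had 0 to 4 counts in all libraries together. Of 16 other tested genes within 500 kb of that cluster, 2 were higher and none lower, against 13.3% and 11.9% of all tested genes. CYP2S1, the most abundant member, was at 44.9, 40.8 and 43.3 CPM in control and 44.0, 37.9 and 43.9 CPM in knockdown libraries (log2 fold change -0.04, SE 0.0749, adjusted p = 0.766). CYP2W1, known as a P450 of fetal colon and colorectal tumours, was at 0.856, 0.731 and 0.878 CPM against 1.38, 0.942 and 1.71 CPM. Its libraries did not overlap and it was not called (log2 fold change 0.71, adjusted p = 0.089), but it passed without knockdown replicate 2 (0.0325).

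**Figure D5:**
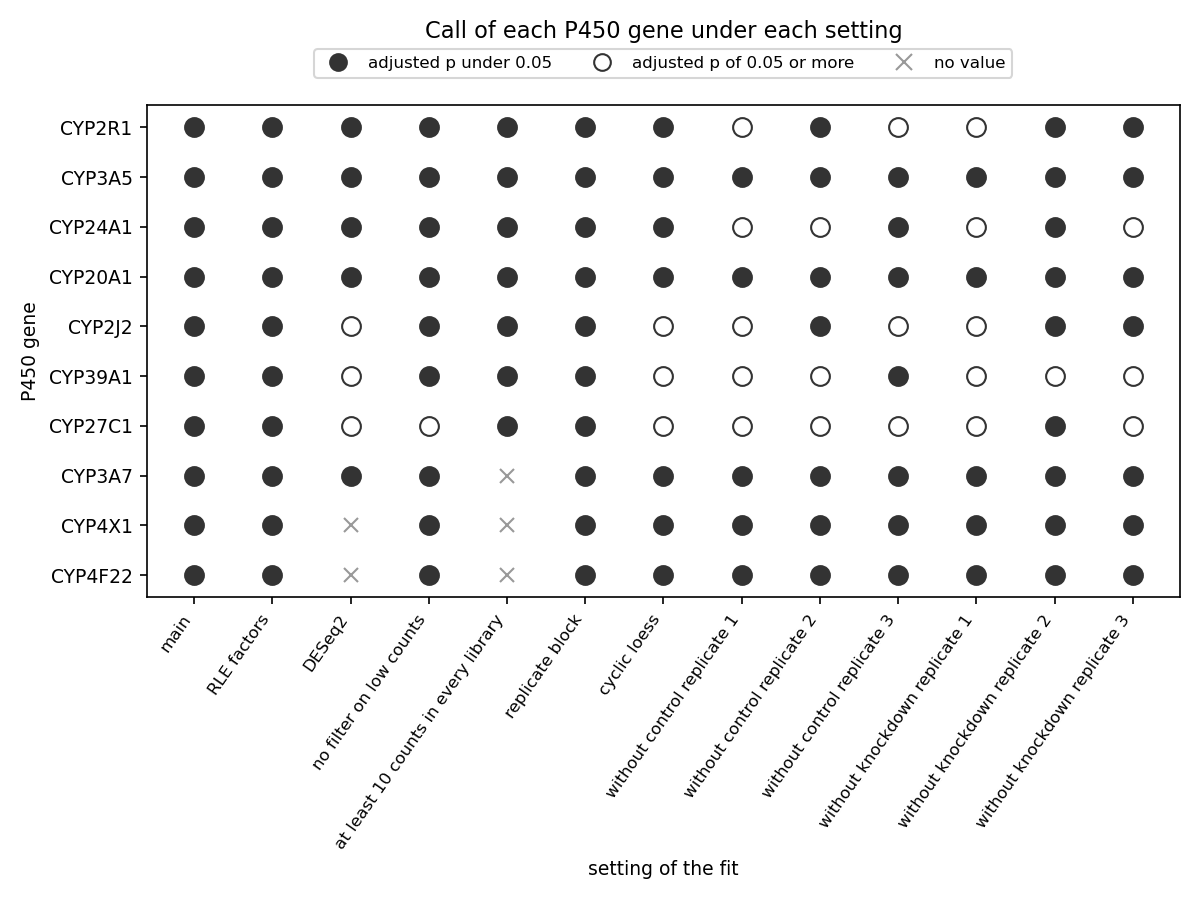
Calls of the 10 P450 genes called in the edgeR fit (rows) under that fit and 12 alternatives (columns). Filled circles mark an adjusted p under 0.05, open circles one of 0.05 or more, and crosses a fit with no value for the gene. CYP3A5 and CYP20A1 are filled throughout, CYP3A7, CYP4X1 and CYP4F22 wherever they had a value, and CYP39A1 and CYP27C1 are open in most columns that leave out a library.

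POR, the main electron donor of P450 enzymes, was at 168 to 183 CPM in control and 184 to 194 CPM in knockdown libraries (log2 fold change 0.09, adjusted p = 0.256), and CYB5A, which also passes electrons, had a log2 fold change of 0.02 (adjusted p = 0.929). Of 17 genes of electron transfer and heme metabolism, all tested, 3 were higher and none lower (17.6%, against 25.2% of all tested genes): CYB5R3 (0.32), FECH, the last enzyme of heme synthesis (0.26), and HMOX1, which breaks heme down (0.60, adjusted p = 0.00151). FECH lost the call in at least 1 alternative fit (highest adjusted p = 0.224). HMOX1 rose from 4.98, 4.73 and 4.95 CPM to 7.70, 7.5 and 7.05 CPM. Of 28 listed regulators of P450 genes, 20 were tested, 5 were higher (VDR, RARA, CEBPB, PPARA, NR5A2) and 1 was lower. The lower gene was NR1H2, an oxysterol receptor (highest adjusted p in an alternative fit 0.0646). Of the tested regulators 30% were called, against 25.2% of all tested genes. NR5A2, a nuclear receptor that drives bile acid synthesis genes in liver, was at 0.430 to 0.584 CPM in control and 1.10 to 1.16 CPM in knockdown libraries (log2 fold change 1.10, adjusted p = 0.0135). The call was lost with DESeq2 (0.0644) and without control replicate 2 (0.0538). HNF4A and RXRA, partners of many of these receptors at P450 genes, were not called (log2 fold changes -0.10 and -0.08, adjusted p = 0.332 and 0.403).

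Conjugating enzymes add sulfate, glutathione or other groups to P450 products. Their list also held the epoxide hydrolases EPHX1 to EPHX4, which do not conjugate. Of 47 listed genes in the data, 24 were tested, 7 were higher, EPHX2 among them, and 1, GSTM4, was lower. Of the tested genes 33.3% were called, against 25.2% of all tested genes. GSTM4 lost the call in at least 1 alternative fit (highest adjusted p = 0.0746). The sulfotransferase SULT1C2 rose from 2.02, 2.75 and 2.87 CPM to 6.10, 6.63 and 6.61 CPM (log2 fold change 1.34, SE 0.157, adjusted p = 7.75e-06), and SULT1A1, the main phenol sulfotransferase, from 22.3, 24.1 and 23.0 CPM to 35.1, 31.7 and 34.3 CPM (log2 fold change 0.55, SE 0.0761, adjusted p = 4.62e-05). SULT1A2 rose by 0.77 and the glutathione transferase GSTA4 by 0.57 (adjusted p = 0.042 and 0.0373). The groups of SULT1A2 overlapped, and its call was lost with DESeq2 (0.0855), under cyclic loess (0.103), without control replicate 2 or 3 (0.148 and 0.144) and without knockdown replicate 1 or 3 (0.139 and 0.0867). GSTA4 lost its call with DESeq2 (0.0877), under cyclic loess (0.111), without control replicate 1, 2 or 3 (0.11, 0.0625 and 0.0514) and without knockdown replicate 1 (0.253, log2 fold change 0.34). Over the 110 pathway genes outside the family, 73 were tested, 22 were higher and 4 lower, so that 35.6% were called, with a median log2 fold change of 0.09. Over all tested genes 25.2% were called, 13.3% higher and 11.9% lower. The lists were not tested against them and were chosen with earlier results of these data known.

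Hepatocyte markers were listed because many P450 genes are known from liver. Of the 10, 2 were tested: SERPINA1 fell by 0.25 on the log2 scale (adjusted p = 0.00118) and CPS1 was not called (adjusted p = 0.88). ALB had 0 to 5 counts per library, APOA1, APOA2 and HP 0 to 2, and APOB, FGB and TTR had none. TF, the transferrin gene, had 0, 0 and 1 counts in control and 9, 1 and 6 in knockdown libraries, and was not called with no filter (adjusted p = 0.0669). Of 9 markers of blood, endothelial and fibroblast cells, 2 were tested and neither was called. With no filter on low counts the fibroblast marker COL1A2, at 2, 7 and 7 counts in control and 0, 0 and 1 in knockdown libraries, was lower (adjusted p = 0.0253). Summed over each list, hepatocyte markers held 315 to 322 CPM in control and 261 to 277 CPM in knockdown libraries. Almost all of this was SERPINA1 (means 316 and 265 CPM). Colon epithelium markers held 5588 to 6016 and 5177 to 5742 CPM, mostly KRT8, KRT18 and KRT19 (control means 2750, 2025 and 720 CPM). Markers of blood, endothelial and fibroblast cells held 9.54 to 11.6 and 11.9 to 12.7 CPM.

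The core motif of the AHR complex, GCGTG, was searched on both strands of the 250 bases before each RefSeq start. It was in 32.2% of the 35116 windows and in 5 of the 14 windows (35.7%) of the 9 called P450 genes with a window, those of CYP2J2, CYP4F22, CYP4X1, CYP20A1 and CYP27C1. The share per gene over all genes was not computed. CYP1A1 also held it. A match is a description of the letters and no sign of binding.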

How the data were processed

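The authors deposited raw counts per gene for 6 libraries, without normalization. Per the labels, total RNA was extracted with TRIzol and libraries were made with the NEBNext Ultra RNA kit. The submitters' processing notes name CASAVA 1.8, fastp, HISAT2 2.0.5, featureCounts 1.5.0-p3, DESeq2 1.20.0 and GRCh38. The settings of the counting are not given in the sources used here. All 54 members had the gene start and end of GENCODE release 29.

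After filterByExpr and TMM scaling, edgeR 4.0.16 (R 4.3.3) ran its quasi-likelihood test between 3 knockdown and 3 control libraries, adjusted by Benjamini-Hochberg over 17574 genes (threshold 0.05). Standard errors (SE) were derived from each log2 fold change and its F statistic. Ratios of low counts carry exact 95% intervals for counting error only. Alternatives were RLE factors, DESeq2 1.42.0, other filters, cyclic loess, a replicate block and each library left out. Levels between genes are CPM per kilobase. Promoters come from RefSeq (GRCh38.p14), with a window for 38 members. Members called or at 1 CPM or more in a group are given by library or, for CYP2U1 and CYP4V2, by the range of each group. Other tested members are given by their test. Pathway genes are named if called with an absolute log2 fold change of 0.5 or more, or preset. Other called pathway genes were named after their values were seen. The members and lists were chosen with earlier results of these data known.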

Additional observations from a re-analysis of the deposited data

How the results depend on the processing

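Of the 10 P450 genes called, DESeq2 called 5 (3 higher), cyclic loess offsets left 5 higher, and a required log2 change of 1 in size left 3, all higher and 0 lower. The cause of these losses was not tested. Leaving out each library gave 5 to 11 called, 4 to 9 higher and 1 to 2 lower. Role groups with a called member numbered 5, or 3 with DESeq2 or that required size and 3 to 5 with a library left out. Of pathway genes 26 were called, 17 to 29 with a library left out (14 to 23 higher, 2 to 6 lower). With that required size 4 were called, all higher and 0 lower. CRABP1, 1 of these 4, passed the filter only through the knockdown libraries. CNOT7 ranged from -2.13 to -1.98 with a library left out. P450 genes passing the filter numbered 23 to 25 with a library left out, 22 had a mean of at least 0.5 CPM in a group, 18 at least 1 CPM (chosen after seeing the data) and 10 at least 1 CPM per kilobase.

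Among the named genes signs changed only in some that were not called. Under cyclic loess CYP19A1 was at -0.018 and CYB5A at -0.062 (log2 fold change). With a library left out, CYP2S1 ranged from -0.084 to 0.0282, CYP4V2 from -0.0263 to 0.0769, CYP19A1 from -0.101 to 0.504, CYP2E1 from -0.428 to 0.308 and CYB5A from -0.0639 to 0.0877.

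The numbers were not taken as pairs, since nothing in the labels or methods says that they pair the libraries. Same-numbered libraries correlated at 0.0228, 0.153 and -0.0153 in their deviations from the group means. Libraries of unlike number correlated at -0.151 to 0.132. With 3 libraries per group these correlations cannot exclude pairing. With the replicate block 11 P450 genes were called (CYP27A1 added), 9 pathway genes were lower, and 6508 genes in all were called against 4424. Depth limits the 31 P450 genes below the filter of about 0.374 CPM, where most differences could not be tested.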
